A study of Mus musculus with 6 samples.

Results

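The transcripts described here are 50 retained-intron transcripts of 50 genes, drawn from a deposited list of 537 transcripts (491 genes) that the authors gave as differing between libraries labelled Ythdf1 KO and libraries labelled Ythdf1 WT. Of the listed transcripts, 55 (10.2%) carried the type retained intron. Left out were both Slc17a7 transcripts, and 3 transcripts of Rnf123 and Hnrnpk, genes with listed transcripts in both directions, so that 26 higher and 24 lower transcripts remained. Each transcript left out was lower in the libraries labelled KO, and without these omissions 26 would be higher and 29 lower. The members were thus chosen by FPKM (fragments per kilobase of transcript, adjusted for library size) in the same 6 libraries that are described here, so the transcript differences are a description and carry no test.

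The tissue was the anterior cingulate cortex, part of the medial frontal lobe, from adult mice, and bulk RNA was sequenced in 3 libraries labelled WT and 3 labelled KO (WT and KO stand for these labels throughout). The labels give the genotypes as Ythdf1 wild type and Ythdf1 knockout, with no allele, strain, sex, age in weeks or treatment, and no statement that a library is 1 animal. YTHDF1 binds mRNAs that carry N6-methyladenosine (m6A) and acts in the cytoplasm. Oligo(dT) beads selected RNA with a poly(A) tail, and the libraries marked the strand.

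A retained-intron transcript is a mature RNA in which the spliceosome left an intron, or part of it, in place. Such RNAs are often held in the nucleus, where they are spliced later or degraded, and those that reach the cytoplasm usually meet a stop codon inside the intron and become substrates of nonsense-mediated decay. Intron retention is common in the brain and is most frequent for short, GC-rich introns with weak splice sites.

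The deposited gene counts summed to between 61792250 and 69848835 per library. Ythdf1 itself stood at 52.7 ± 3.43 CPM (counts scaled to library size) in WT and at 59.2 ± 2.59 CPM in KO (SD, n = 3 each), a log2 fold change of 0.17 with an SE of 0.066 (edgeR's quasi-likelihood test, adjusted p = 0.930). The gene total was thus not lower in KO, and every direction below is drawn between labels. Summed markers of cortical excitatory neurons lay at 1291 to 1519 CPM in all 6 libraries. Markers of some other cell types moved with the labels: all 10 oligodendrocyte markers were higher (summed 4030 to 4796 CPM in WT, 4497 to 6830 CPM in KO; median log2 fold change 0.34, 0.18 without KO replicate 1), and all 9 meningeal markers were lower (93.8 to 189 CPM against 62.3 to 80.3 CPM). All 8 endothelial markers (212 to 288 CPM against 175 to 241 CPM) and all 6 markers of pericytes and smooth muscle (125 to 172 CPM against 102 to 124 CPM) were lower too. None of these markers passed edgeR's test or limma voom, DESeq2 called 9 markers of the fixed lists, no marker was at 0 in all libraries, and their part in the transcript differences was not tested. In bulk tissue, fewer cells of a type and less RNA per cell cannot be told apart.

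All 50 transcripts matched GENCODE M21 (GRCm38) in type, start, end, strand, exon number and length, and 49 of the host genes are protein-coding, the exception being 4930448E22Rik. In 24 of the 50, an exon ran across at least 1 whole annotated intron of the gene, 42 introns in all. The other 26 started (12) or ended (17) inside an intron, so that they hold part of it only. Intronic bases, those inside the gene's protein-coding transcripts but in none of their exons, made up 0.817% (Flvcr1, a heme exporter) to 97.0% (Ahcyl2) of a transcript, with a median of 27.8%. They were under 10% in 15 transcripts and over 50% in 11. A transcript's FPKM counts all of its exons, and reads over the intron alone are not separated in the deposited values.

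**Figure D1:**
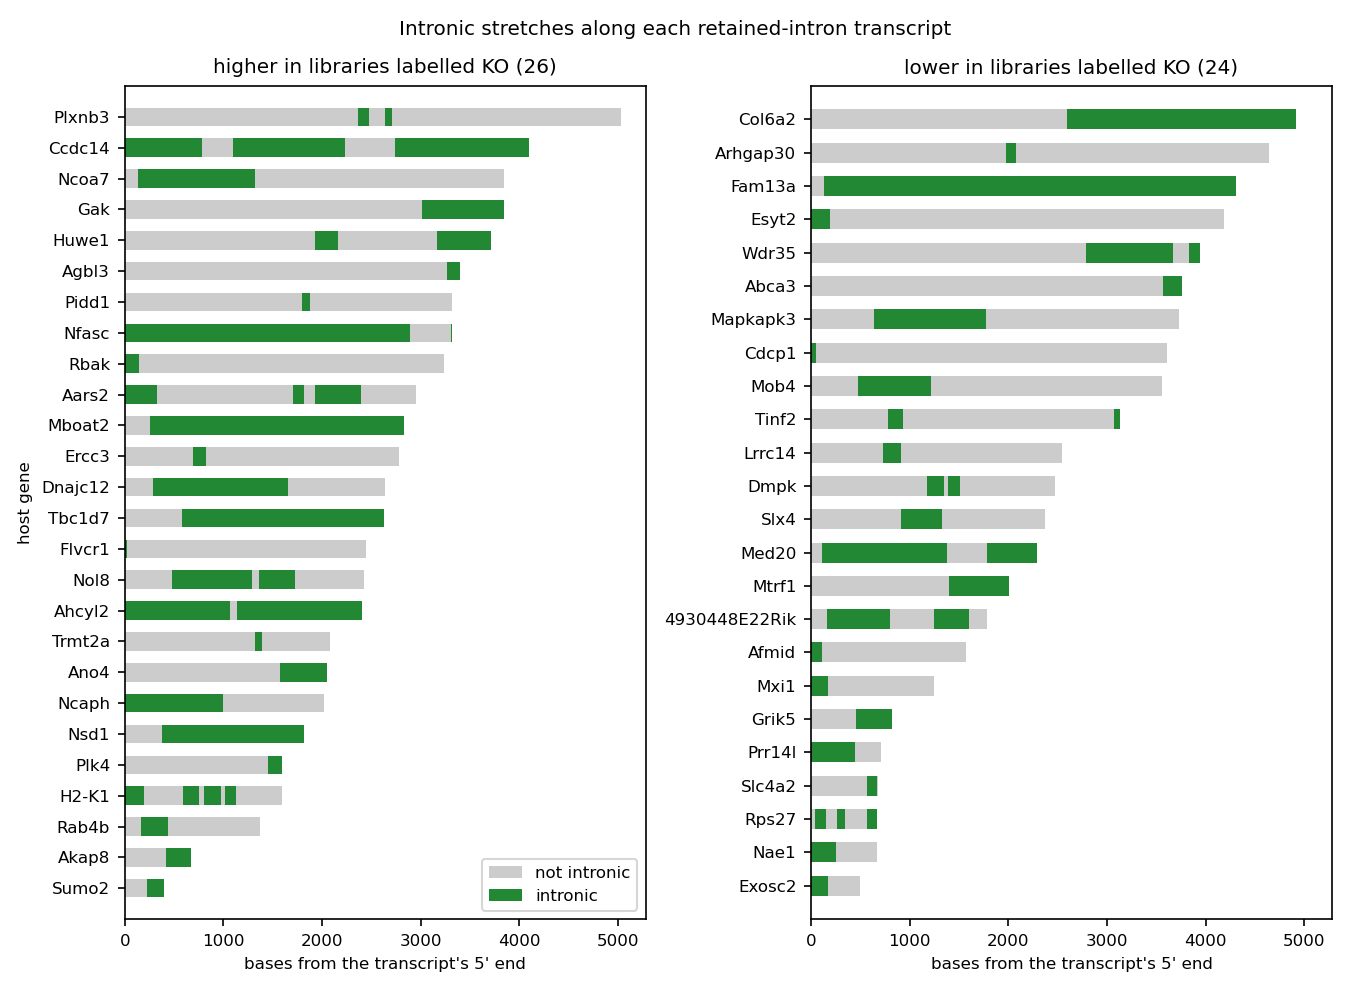
Intronic stretches (green) along each of the 50 transcripts, in bases from the 5' end, with the rest of the transcript in grey; genes are ordered by transcript length, the 26 higher transcripts on the left and the 24 lower on the right. Plxnb3 holds 2 short introns in a long spliced transcript, while Fam13a and Mboat2 are intronic over most of their length.

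For 8 transcripts the longest whole intron is shown in full, because it lets the splice signals and the first stop codon be read directly. These 8 had the largest differences in mean FPKM, 4 in each direction, among transcripts whose longest whole intron was at most 300 bases. Ercc3 was left out, and its sequence is not shown. Plxnb3 and Dmpk each hold a further whole intron that is not shown. Sequences are from GENCODE M21, 5' to 3' on the strand of the gene, with coordinates in GRCm38. Capitals mark the first stop codon in the reading frame of the upstream coding exon, where it lies inside the intron. The introns of the higher transcripts were
Rab4b (chr7:27175894-27176157, minus strand): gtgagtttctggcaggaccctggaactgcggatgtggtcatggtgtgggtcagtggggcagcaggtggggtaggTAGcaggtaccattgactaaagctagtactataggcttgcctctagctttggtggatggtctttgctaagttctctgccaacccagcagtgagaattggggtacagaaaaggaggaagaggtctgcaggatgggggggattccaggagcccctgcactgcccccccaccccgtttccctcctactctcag
Plxnb3 (chrX:73767181-73767290, plus strand): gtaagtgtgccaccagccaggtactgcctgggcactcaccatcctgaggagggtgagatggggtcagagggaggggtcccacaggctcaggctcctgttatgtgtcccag
Trmt2a (chr16:18251475-18251548, plus strand): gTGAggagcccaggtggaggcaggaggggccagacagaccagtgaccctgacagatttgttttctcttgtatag
Pidd1 (chr7:141440154-141440230, minus strand): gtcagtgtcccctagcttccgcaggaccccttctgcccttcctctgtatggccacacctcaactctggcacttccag
The introns of the lower transcripts were
Tinf2 (chr14:55680457-55680610, minus strand): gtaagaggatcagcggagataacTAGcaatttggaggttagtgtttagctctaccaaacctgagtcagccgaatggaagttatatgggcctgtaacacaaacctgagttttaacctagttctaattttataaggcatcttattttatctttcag
Arhgap30 (chr1:171407636-171407727, plus strand): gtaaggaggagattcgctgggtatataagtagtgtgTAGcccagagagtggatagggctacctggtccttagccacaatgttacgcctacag
Slc4a2 (chr5:24434240-24434337, plus strand): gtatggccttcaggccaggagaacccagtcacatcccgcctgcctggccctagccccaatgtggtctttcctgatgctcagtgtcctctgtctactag
Dmpk (chr7:19092037-19092207, plus strand): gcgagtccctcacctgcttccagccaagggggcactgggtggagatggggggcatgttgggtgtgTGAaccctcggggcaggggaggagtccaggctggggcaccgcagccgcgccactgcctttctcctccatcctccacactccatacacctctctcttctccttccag

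Translation running into these introns met TAG from base 75 in Rab4b, TGA from base 2 in Trmt2a, TAG from base 24 in Tinf2, TAG from base 37 in Arhgap30 and TGA from base 66 in Dmpk, counted from 1 at the first base of the intron. Plxnb3, Pidd1 and Slc4a2 hold no in-frame stop within the intron shown. In Plxnb3 and Pidd1, intron lengths of 110 and 77 bases shift the frame, and the first stop starts at base 181 and base 158, past the intron's end. All but Dmpk begin with GT, and the Dmpk intron begins with GC, a rarer donor that the major spliceosome also uses.

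Splice sites alone are shown for the transcripts, among the 6 in each direction with the largest difference in mean FPKM and a whole intron (again without Ercc3), whose intron is longer than 300 bases. Each donor has 3 exon and 6 intron bases, each acceptor 20 intron and 3 exon bases, and capitals mark the first and last intron letters. They are
Ncoa7 donor (intron chr10:30654443-30655636, minus strand): aagGTaggt
Ncoa7 acceptor (intron chr10:30654443-30655636, minus strand): tctttctgtcctcacttcAGatc
Nol8 donor (intron chr13:49675513-49676321, plus strand): tggGTaagc
Nol8 acceptor (intron chr13:49675513-49676321, plus strand): tttctccctcgtgttttcAGaga
Aars2 donor (intron chr17:45519815-45520285, plus strand): cagGTaaga
Aars2 acceptor (intron chr17:45519815-45520285, plus strand): attctctcccccacccccAGgat
H2-K1 donor (intron chr17:33996655-33997037, minus strand): cagGTagga
H2-K1 acceptor (intron chr17:33996655-33997037, minus strand): tttgttttgttttaccctAGgct
Mob4 donor (intron chr1:55150226-55150970, plus strand): cagGTaaac
Mob4 acceptor (intron chr1:55150226-55150970, plus strand): ggtttctcttctttttttAGggt
Esyt2 donor (intron chr12:116370289-116371216, plus strand): gatGTacca
Esyt2 acceptor (intron chr12:116370289-116371216, plus strand): gtccttgtttcttaccctAGgaa
Rps27 donor (intron chr3:90213302-90213609, minus strand): cctGTgagt
Rps27 acceptor (intron chr3:90213302-90213609, minus strand): tgcatttctgccccttttAGctc
Wdr35 donor (intron chr12:9021841-9022718, plus strand): caaGTgagg
Wdr35 acceptor (intron chr12:9021841-9022718, plus strand): atttatattgcttttcctAGtgg

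The Mob4, Aars2 and H2-K1 donors follow an exon that ends in cag, and the Esyt2 donor matches the consensus GTAAGT in 3 of 6 letters, against 6 of 6 for Plxnb3. The Esyt2 intron shown belongs to no protein-coding transcript of the gene, and the H2-K1 and Rps27 introns shown contain smaller annotated introns. In the frame of the upstream exon, the Mob4 and Nol8 introns hold TAA at their bases 2 to 4. Across the 42 whole introns, 41 began with GT and ended with AG (97.6%, against 97.7% of 9673 whole introns in annotated retained-intron transcripts of the genes tested). The median donor matched 4.5 of 6 letters of GTAAGT, against 4 in that background. The median whole intron was 222 bases long, against 285 bases in the background and 1095 bases for the 895 introns of the host genes' coding transcripts.

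Of 31 introns that lie between coding exons, 24 held an in-frame stop, with its last base at a median of 34 bases into the intron, and in 6 of them the stop occupied bases 2 to 4. The other 7 introns had none inside, and each of these shifted the frame: 8 of the 31 lengths were multiples of 3, and 0 of these 8 were free of a stop. H2-K1, which encodes a classical MHC class I heavy chain, contributed 7 overlapping annotated introns to these counts. Among transcripts that end inside an intron, the frame was known for 21, and 20 reached a stop, at a median of 21.5 bases past the donor. The reading frames are read from the annotation and were not measured as protein.

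The listed transcripts were longer than the 20488 annotated retained-intron transcripts of tested protein-coding genes, 49 of which are members. Their median length was 2510 bases against 869, and they had 4 exons against 3. A whole intron was present in 48% of them, against 32.0%, and intronic bases made up a median of 27.8% against 41.2%. The background holds annotated transcripts whether or not they were detected here, and none of these contrasts was matched for length or detection. GC content was similar (medians 48.7% and 49.9%). The letters GGACT, the commonest form of the m6A consensus, read on the transcript's strand, occurred in 86% of the 50 transcripts against 67.1% of the background. Per kilobase the medians were close (0.943 against 0.935 GGACT), and within whole introns 31.0% held GGACT against 33.7%. A match to these letters does not show that the site is methylated.

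The 50 transcripts were of low abundance. In the group where each was higher, the median of the mean FPKM was 0.420; 9 transcripts reached 1 FPKM, 31 were under 0.5 and 7 under 0.1. Converted through length and library size, those levels equal a median of 43.8 counts per library, with 27 transcripts under 50 and 3 over 500 (Mob4, Ncoa7 and Rbak). The lowest was Pidd1 with 10.8 counts. Read assignment to transcripts that share exons adds an uncertainty that the FPKM values do not show.

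In 48 of 50 transcripts, the 3 libraries of each label did not overlap in FPKM, against 92.7% of all listed transcripts. This count follows from the listing and is no evidence of its own. The exceptions were Ncoa7 and Huwe1. The median over the 26 higher transcripts was 0.0739, 0.0491 and 0.0470 FPKM in WT replicates 1, 2 and 3 and 0.322, 0.288 and 0.290 FPKM in KO replicates 1, 2 and 3. Over the 24 lower transcripts it was 0.400, 0.519 and 0.524 FPKM in WT and 0.0874, 0.09997 and 0.103 FPKM in KO. The highest value of a transcript was spread over the libraries, falling on KO replicate 1 in 12 and on KO replicates 2 and 3 in 7 each of the 26 higher transcripts.

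**Figure D2:**
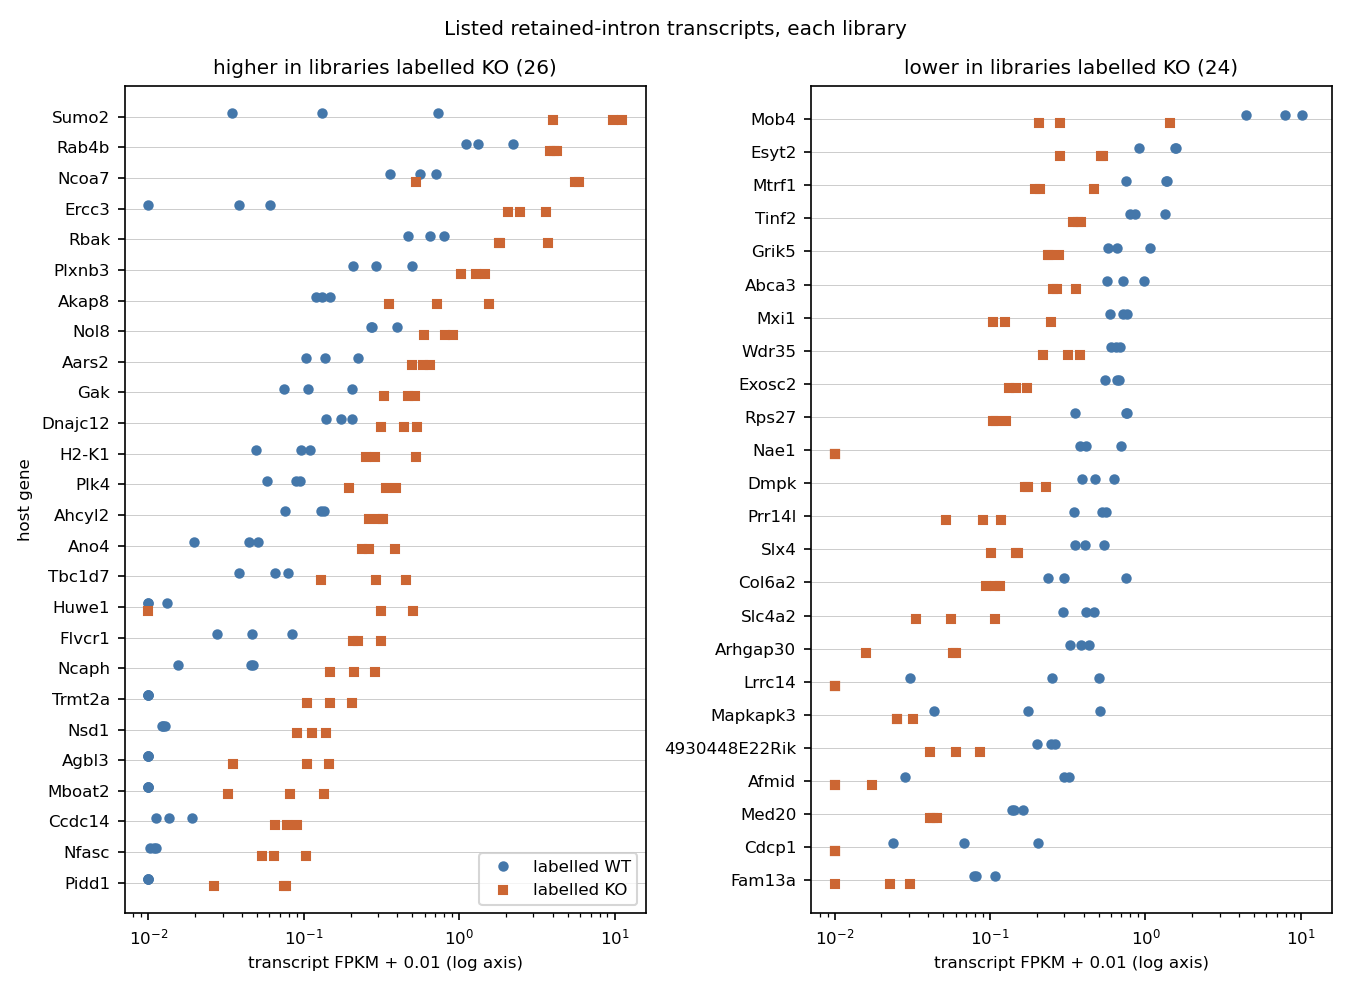
FPKM of each transcript in each library, with 0.01 added and on a log axis; circles are libraries labelled WT, squares libraries labelled KO, and genes are ordered by the mean of their higher group. Circles and squares are apart in all transcripts but Ncoa7, where KO replicate 1 lies among the WT libraries, and Huwe1, where KO replicate 2 is at 0.

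In 4 of the higher transcripts all WT libraries were at 0: Trmt2a (a tRNA methyltransferase), Agbl3 (a deglutamylase of tubulin), Mboat2 (a lysophospholipid acyltransferase) and Pidd1 (the scaffold of the PIDDosome). Their KO means were 0.142, 0.0854, 0.0727 and 0.0493 FPKM. In 3 of the lower transcripts all KO libraries were at 0: Nae1, Lrrc14 and Cdcp1, with WT means of 0.489, 0.252 and 0.0878 FPKM. Every one of these sets of 0 stands beside low values in the other group, with group means equal to 10.8 to 42.6 counts. Single libraries of that group ranged from 3.33 counts (Cdcp1, WT replicate 1) to 84.2 counts (Lrrc14, WT replicate 1). A listed 0 can also be a failed estimate. Huwe1, a giant ubiquitin ligase abundant in neurons, had a transcript at 0.305, 0 and 0.492 FPKM in the KO replicates and at most 0.00310 FPKM in the WT replicates.

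Transcripts of genes for nuclear DNA and transcription factors included that of Ercc3. Ercc3 encodes XPB, the helicase of the transcription and repair factor TFIIH. Its retained-intron transcript (chr18:32240354-32270151, plus strand, 14 exons with a whole intron of 127 bases) was at 0.0282, 0.0507 and 0 FPKM in WT and at 3.59, 2.06 and 2.46 FPKM in KO. Every KO library was far above every WT library, with means of 0.0263 ± 0.0254 and 2.70 ± 0.795 FPKM (SD, n = 3 each). Its host gene total was 25.1 ± 1.32 CPM in WT and 24.2 ± 1.40 CPM in KO.

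Ncoa7, which encodes a nuclear receptor coactivator with a TLDc domain that helps protect cells from oxidative stress, was split within the KO group. The transcript was at 0.550, 0.347 and 0.701 FPKM in WT and at 0.519, 5.87 and 5.55 FPKM in KO. KO replicate 1 lay within the WT range, so that the KO mean of 3.98 ± 3.00 FPKM describes 2 libraries. Rbak, a zinc-finger repressor that binds the retinoblastoma protein, was at 0.642, 0.458 and 0.794 FPKM in WT and at 1.83, 1.80 and 3.74 FPKM in KO, without overlap. Akap8, a nuclear anchor of protein kinase A, went from 0.124 ± 0.0138 to 0.866 ± 0.617 FPKM, with a wide spread in KO.

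In the lower direction this group held Tinf2 and Mxi1. Tinf2, which encodes the shelterin protein TIN2 that binds telomeres, was at 1.33, 0.847 and 0.786 FPKM in WT and at 0.375, 0.332 and 0.360 FPKM in KO, where the libraries were close to each other. Mxi1, a MAX partner that opposes MYC, went from 0.679 ± 0.0909 FPKM in WT to 0.148 ± 0.0772 FPKM in KO. Exons of these transcripts overlap another gene on the opposite strand (Gmpr2 for Tinf2, Gm10197 for Mxi1), and whether the counting used the strand is not stated in the labels.

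Among signalling and membrane-traffic genes, Mob4 had the most abundant lower transcript. Mob4 encodes phocein, a subunit of the STRIPAK phosphatase complex found in dendritic spines. Its transcript (chr1:55131260-55154898, plus strand, 3555 bases with a whole intron of 745 bases) was at 10.2, 7.88 and 4.40 FPKM in WT and at 1.42, 0.272 and 0.197 FPKM in KO. The groups did not overlap, and within KO replicate 1 was the highest. The gene total was 62.4 ± 3.94 CPM in WT and 62.5 ± 1.71 CPM in KO. Stretches of this transcript of 150 bases or more match 20 other genes at an identity of 95% or above, so its reads are uncertain where such copies share them.

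Rab4b, a small GTPase of early and recycling endosomes, had its retained-intron transcript at 2.22, 1.10 and 1.32 FPKM in WT and at 4.08, 3.81 and 4.25 FPKM in KO. All KO libraries were above all WT libraries and close to each other. Exons of the transcript overlap Gm21983 and Mir3101 on the same strand. Gak, the kinase that helps strip clathrin from vesicles, went from 0.119 ± 0.0678 to 0.429 ± 0.0999 FPKM and also overlaps another gene on its strand.

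Plxnb3, a semaphorin 5A receptor expressed in oligodendrocytes, was at 0.198, 0.489 and 0.284 FPKM in WT and at 1.45, 1.28 and 1.01 FPKM in KO. Within each label, the order of the libraries was that of the summed oligodendrocyte markers. By replicate, these sums were 6830, 5162 and 4497 CPM for KO and 4030, 4796 and 4108 CPM for WT. Between labels the order did not hold throughout. WT replicate 2 had a higher marker sum than KO replicate 3 but less of the transcript (0.489 against 1.01 FPKM). The part of those cells in the difference was not tested. The host gene total was 23.0 ± 3.47 CPM in WT and 27.4 ± 2.70 CPM in KO.

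Esyt2, a lipid-transfer tether between the endoplasmic reticulum and the plasma membrane, was at 1.54, 0.897 and 1.57 FPKM in WT and at 0.521, 0.270 and 0.505 FPKM in KO. Arhgap30, a GTPase-activating protein, was at 0.377, 0.421 and 0.315 FPKM in WT and at 0.0501, 0.00579 and 0.0475 FPKM in KO. Neither gene's groups overlapped. Grik5, the GluK5 subunit of kainate receptors, went from 0.755 ± 0.260 to 0.241 ± 0.0246 FPKM, and Abca3, a lipid transporter, from 0.743 ± 0.205 to 0.284 ± 0.0566 FPKM.

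Genes of RNA, protein synthesis and protein tagging were found in both directions. Sumo2, the ubiquitin-like modifier attached to many neuronal and nuclear proteins, had the highest KO mean of all 50. It was at 0.121, 0.0247 and 0.720 FPKM in WT and at 9.69, 4.00 and 11.2 FPKM in KO. The groups were far apart, but the transcript is the shortest of the 50 (397 bases) and 11 other genes match it by the same measure. The gene total went the other way, at 37.9, 33.3 and 90.0 CPM in WT and 32.5, 37.1 and 33.0 CPM in KO, and its WT mean rests on replicate 3.

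Aars2, the mitochondrial alanyl-tRNA synthetase, was at 0.0926, 0.127 and 0.212 FPKM in WT and at 0.641, 0.484 and 0.577 FPKM in KO. Nol8, a nucleolar protein of ribosome assembly, went from 0.304 ± 0.0715 to 0.760 ± 0.165 FPKM. Mtrf1, a mitochondrial translation release factor, was at 0.738, 1.37 and 1.34 FPKM in WT and at 0.456, 0.1996 and 0.184 FPKM in KO. In these 3 genes the libraries of the labels did not overlap, and Aars2 and Mtrf1, both of mitochondrial translation, stood in opposite directions.

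Rps27, a protein of the small ribosomal subunit, had its transcript at 0.748, 0.340 and 0.737 FPKM in WT and at 0.117, 0.0944 and 0.0997 FPKM in KO, while 5 other genes match it by that measure. Its gene total of 2.83 to 11.0 CPM is low for a ribosomal protein gene and is uncertain for the same reason. Exosc2, a cap subunit of the RNA exosome, which degrades and trims nuclear RNA, went from 0.618 ± 0.0715 to 0.141 ± 0.0209 FPKM. Nae1, a subunit of the enzyme that activates NEDD8, was at 0.371, 0.407 and 0.688 FPKM in WT and at 0 in all KO libraries.

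The 29 transcripts outside the rule for names, 16 higher and 13 lower, had means of 0.0493 to 0.637 FPKM in their higher group, with a median of 0.238 FPKM. In 16 of them the transcript held under 5% of its gene total even there. Nfasc, which encodes the cell adhesion protein neurofascin of the axon initial segment and nodes of Ranvier, went from 0.000814 ± 0.000523 to 0.0639 ± 0.0260 FPKM in a gene of 337.2 and 351.6 CPM. H2-K1 was at 0.0854, 0.0990 and 0.0390 FPKM in WT and at 0.517, 0.243 and 0.276 FPKM in KO, and 1 other gene matches it at the identity given for Mob4. Dnajc12, a co-chaperone for the aromatic amino acid hydroxylases, went from 0.163 ± 0.0327 to 0.422 ± 0.113 FPKM, and Dmpk, the myotonic dystrophy kinase, from 0.487 ± 0.121 to 0.181 ± 0.0336 FPKM. The 50 host genes lie on 19 chromosomes, with at most 5 on any (chromosome 17: Aars2, H2-K1, Akap8, Med20 and Abca3).

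The weight of a transcript within its gene was read as the share of the gene total that its count equivalent makes up. On 6 listed genes with a single annotated transcript this share came out at a median of 93.4% (quartiles 93.0% and 93.9%), so the scale runs slightly low. Within a library the value was nearly the same for each of these genes. They have no second transcript to divide reads with, so this does not gauge how well shares are estimated in the host genes. For the 26 higher transcripts the median share was 0.454% in WT and 6.34% in KO, and for the 24 lower transcripts 6.02% and 0.919%. In 23 of 50 the share stayed under 5% even in the group where it was higher, and in 10 it was over 25% there.

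In the 10 with a large share much of the gene total was assigned to the retained-intron transcript in at least some libraries. Intronic bases made up 1.47% (Cdcp1) to 55.7% (4930448E22Rik) of these transcripts, 1.98% in Arhgap30 and 4.57% in Ercc3. Where that part is small, the share rests on how reads over shared exons were assigned. For Mob4 the share was 55.6%, 44.4% and 26.9% in WT and 7.83%, 1.61% and 1.11% in KO, while the rest of the gene stood at 35.6 ± 6.62 CPM and 60.3 ± 1.63 CPM. For Ercc3 it was 0.296%, 0.593% and 0 in WT and 43.9%, 23.4% and 27.0% in KO, with the rest of the gene at 25.01 ± 1.34 CPM and 16.7 ± 3.46 CPM. Rbak went from 16.9%, 11.9% and 19.6% to 43.3%, 47.1% and 88.6%. In these genes the transcript and the remainder of the gene stood in opposite directions around a like total. The remainder is the gene total less the transcript's count equivalent, so around a like total this follows from the subtraction.

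**Figure D3:**
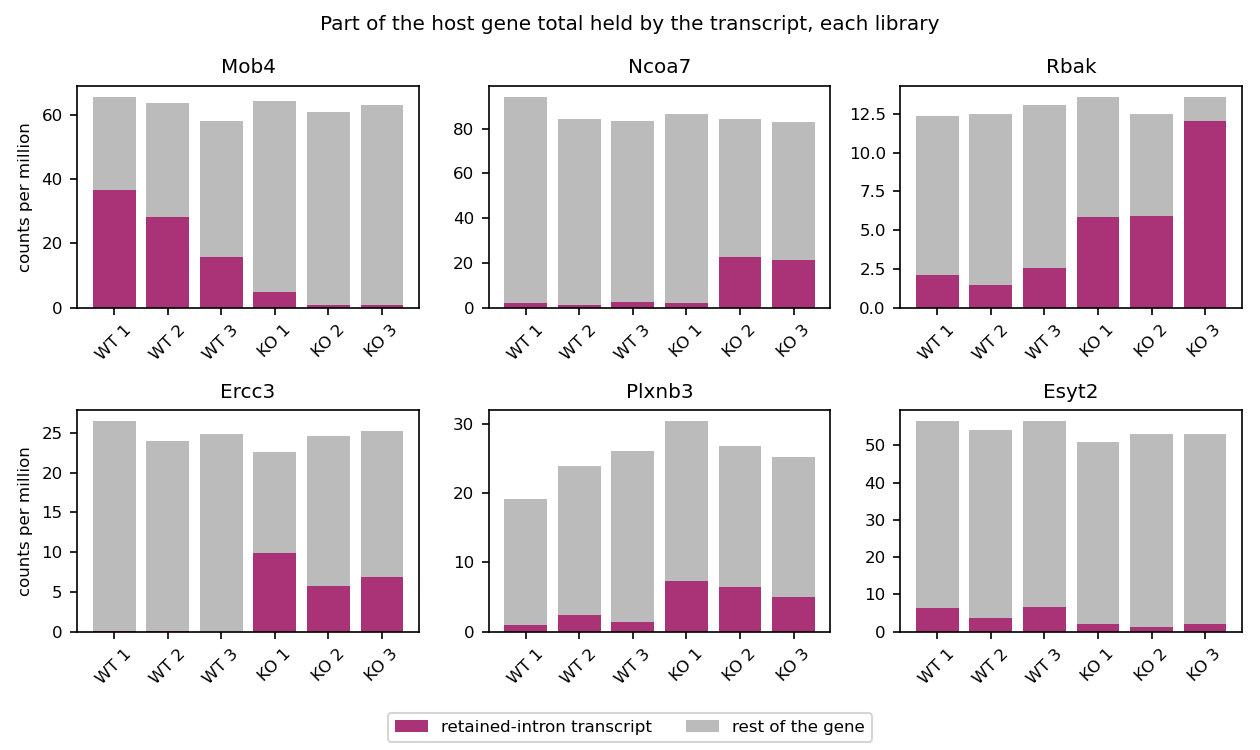
Gene total in CPM for each library, split into the retained-intron transcript (purple) and the rest of the gene (grey), for the 6 transcripts with the highest count equivalents. The purple part is 26.9% to 55.6% of Mob4 in WT against at most 7.83% in KO, and in Ncoa7 it is as small in KO replicate 1 (2.30%) as in WT; the bars of Plxnb3 range from 19.2 to 26.0 CPM in WT and from 25.2 to 30.4 CPM in KO.

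Arhgap30 held a mean share of 62.0% in WT against 5.13% in KO, in a gene of only 3.02 ± 0.831 CPM in WT. Mtrf1 was at 35.4% against 9.36%, Plxnb3 at 7.02% against 22.8%, Tinf2 at 17.9% against 6.82% and Rab4b at 6.38% against 15.4%. Other large shares were in genes with mean totals under 4 CPM: Ncaph, a condensin subunit (5.69% against 47.0%), Afmid, an enzyme of kynurenine formation (40.4% against 0.340%), Mapkapk3, a kinase downstream of p38 (36.8% against 2.47%), and Cdcp1 (31.8% against 0). At such gene totals a share rests on few counts and varied between libraries. In WT replicates 1, 2 and 3 the share of Mapkapk3 was 23.0%, 84.2% and 3.12%, and the last was close to the 1.70% to 2.98% in KO. That of Afmid was 2.63%, 61.9% and 56.8%, and that of Cdcp1 5.74%, 62.5% and 27.0%. For Ncaph the KO shares were 48.3%, 74.3% and 18.4%.

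**Figure D4:**
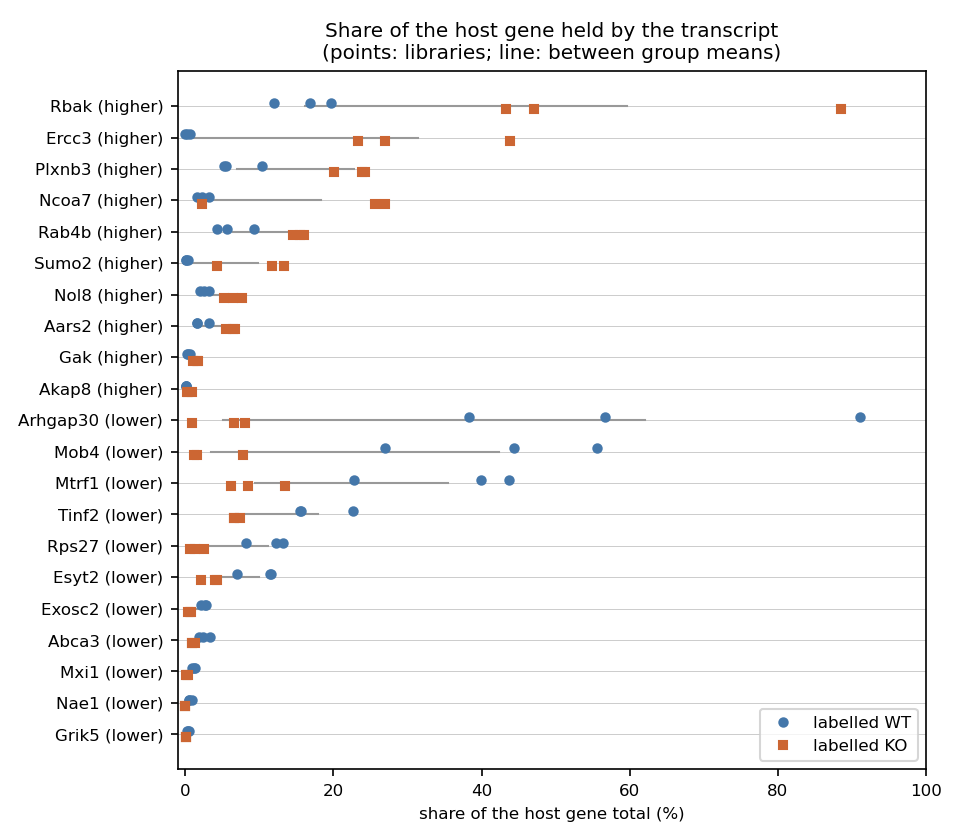
Share of the host gene total held by the transcript, in percent, for the 21 transcripts named by rule; points are libraries, and the line joins the group means. Rbak, Ercc3, Arhgap30, Mob4, Mtrf1 and Ncoa7 reach shares over 25% in at least 1 library, while Grik5, Nae1, Akap8 and Mxi1 stay near 0.

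The host genes as a whole stayed close to even. All 50 were tested, and edgeR called 0 of them, as it called 0% of all 20587 genes tested. DESeq2 and limma voom also called 0 host genes. At an unadjusted p under 0.05 in edgeR's fit stood 4 of 50 host genes, against 5.26% of all genes tested. In DESeq2's fit it was 7 of 50 host genes, against 1089 of the 20587 genes tested. The median log2 fold change was 0.05 for hosts of higher transcripts and -0.07 for hosts of lower transcripts, beside a median of -0.00062 over all genes tested. In 39 hosts the absolute log2 fold change was under 0.2. Since a transcript's reads are part of its gene total and come from the same libraries, the host totals are no independent measure.

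The 4 hosts at an unadjusted p under 0.05 had the sign of their transcripts. Aars2 was at 20.2 ± 3.24 and 26.9 ± 2.21 CPM, a log2 fold change of 0.41 with an SE of 0.120 (edgeR adjusted p = 0.881). Ano4, of the anoctamin family of membrane proteins, had a log2 fold change of 0.34 (SE 0.113, edgeR adjusted p = 0.881). For Grik5 the value was -0.18 (SE 0.076, edgeR adjusted p = 0.930). For 4930448E22Rik it was -2.10 (SE 0.495, edgeR adjusted p = 0.881). The transcript of 4930448E22Rik and its gene stood lower together, with gene means of 0.704 CPM in WT and 0.162 CPM in KO. Its mean share was 62.0% in WT and 63.3% in KO, but rests on few counts and varied between libraries. By replicate, the WT shares were 46.1%, 92.4% and 47.5%, on gene counts of 49, 32 and 59. The KO shares were 27.8%, 91.6% and 70.4%, on gene counts of 14, 6 and 12. The transcript is also matched by 1 other gene at the identity given for Mob4.

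Libraries of the labels did not overlap in 7 host gene totals, 3 higher and 4 lower, against 11% of all genes tested (5.84% higher and 5.16% lower). Besides Aars2, Ano4, Grik5 and 4930448E22Rik these were Flvcr1, Abca3 and Esyt2. The sign of the host total was that of the transcript in 33 of 50 genes, and the rest of the gene had the opposite sign in 29 of 50. That rest is the total less the transcript itself, so its sign is no independent measure either. Sumo2 and Rps27 had the largest host differences against their transcripts, with log2 fold changes of -0.65 (SE 0.316) and 0.81 (SE 0.404), and both have near-identical copies. The Rps27 total was at 4.13, 2.83 and 3.74 CPM in WT and at 3.04, 4.76 and 11.0 CPM in KO, so that its difference rests on KO replicate 3. Col6a2, a collagen of fibroblasts, had a host log2 fold change of -0.29 (SE 0.193), and its transcript went from 0.418 ± 0.280 to 0.0958 ± 0.0112 FPKM. The summed meningeal markers were lower in KO too, and stood at 189, 93.8 and 126 CPM in WT replicates 1, 2 and 3. In those libraries the transcript was at 0.226, 0.739 and 0.289 FPKM and the Col6a2 gene total at 15.4, 10.4 and 15.5 CPM. The part of meningeal cells in the difference was not tested.

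**Figure D5:**
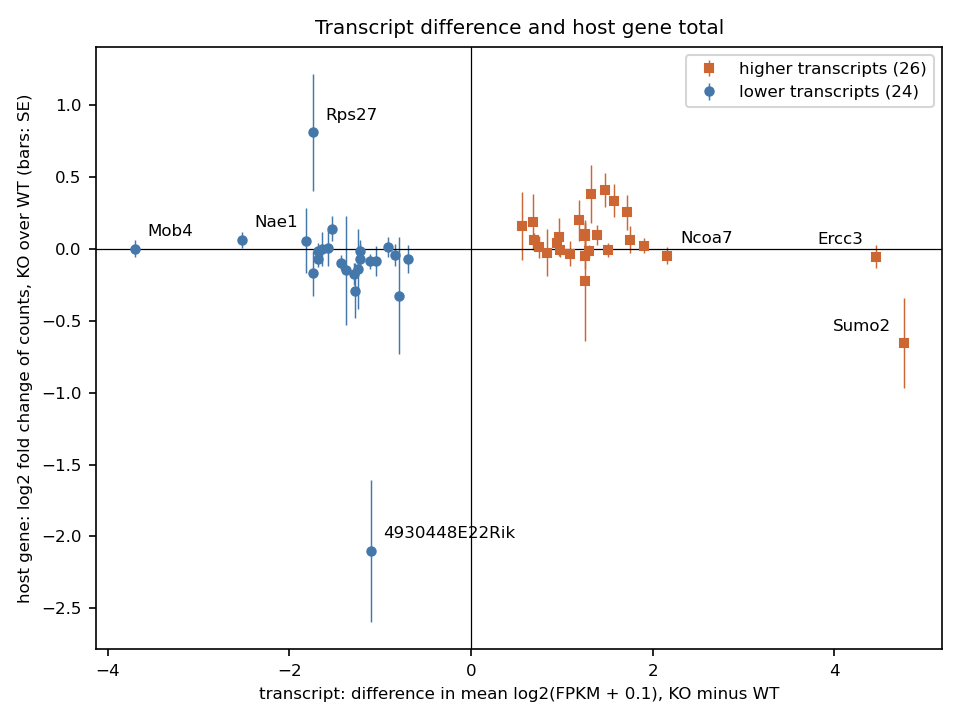
Difference of each transcript in mean log2(FPKM + 0.1), KO minus WT (x axis), against the log2 fold change of its host gene's counts with its SE (y axis). Of the 50 host genes, 39 lie within 0.2 of 0, and 4930448E22Rik, Rps27 and Sumo2 lie more than 0.5 from it.

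Members just inside the listing were Slc4a2, an anion exchanger, with the highest q-value in the authors' deposited table among the 50 (0.0431), and Wdr35, a protein of transport in cilia, with the smallest absolute log2 ratio there (1.11). The whole deposited list ended at a q-value of 0.0496 and an absolute log2 ratio of 1.01, and transcripts beyond it are not used here. Wdr35 was at 0.676, 0.594 and 0.640 FPKM in WT and at 0.305, 0.210 and 0.371 FPKM in KO. Tbc1d7 was the only host with another listed transcript.

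Genes whose products act on introns or on RNAs that keep them had median log2 fold changes near 0. Of 86 splicing and intron retention factors, edgeR called 0 in either direction, 2 were at an unadjusted p under 0.05 (2.33%), and the median log2 fold change was 0.01 (-0.003 without KO replicate 2). The 2 were Snrpd2, a core protein of spliceosomal snRNPs, at 10.5 ± 1.28 and 13.4 ± 1.01 CPM (edgeR adjusted p = 0.881), and U2af1, which binds the AG of the 3' splice site, at 23.6 ± 2.05 and 27.0 ± 0.822 CPM (edgeR adjusted p = 0.930). Of 31 genes of nuclear RNA surveillance and export, 0 were called and 2 stood at an unadjusted p under 0.05, the exosome subunits Exosc4 (9.69 ± 0.725 and 11.8 ± 0.556 CPM) and Exosc7 (9.98 ± 0.279 and 11.8 ± 0.941 CPM). Of 21 nonsense-mediated decay factors, 0 were called, 1 stood at an unadjusted p under 0.05 (4.76%), and the median log2 fold change was -0.02. DESeq2 and limma voom called 0 genes of these 3 lists, and the shares at an unadjusted p under 0.05 lie near or below the 5.26% of all genes tested, apart from 6.45% of the surveillance genes. By sign, 54 splicing factors were higher and 32 lower, beside 10256 higher and 10331 lower of all genes tested. Of the surveillance genes 16 were higher and 15 lower, and of the decay factors 7 and 14. These splits were not tested.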

How the data were processed

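Bulk RNA-seq of 6 libraries was used. The submitters' processing notes name HISAT2 2.2.1, cutadapt 1.9, StringTie 2.1.6, edgeR and DESeq2. How genes were counted, and whether by strand, is not given in the sources used here. For 55401 genes the authors deposited whole-number counts, not normalized. The authors also deposited FPKM per library for the listed transcripts, with a log2 ratio, a linear fold, p-values and q-values. The test behind these is not stated.

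Genes were kept with filterByExpr, scaled by TMM (0.993 to 1.01) and compared with edgeR 4.0.16 (R 4.3.3, quasi-likelihood test, no covariate), and called at an adjusted p (Benjamini-Hochberg) under 0.05. TMM-scaled totals underlie CPM. Transcript differences are means of log2(FPKM + 0.1), which understates changes of low transcripts. A count equivalent is FPKM times transcript length and library total, and a share is that over the gene count. Structures and sequences come from GENCODE M21 (GRCm38), and copies from blastn 2.17.0. On simulated counts for 20587 genes, with 50 changed genes per fold, the test called 28 at 1.5-fold, 37 at 2-fold and 47 at 4-fold, with 14 false calls. Changes were planted only in genes above a CPM floor, and the totals of 4930448E22Rik, Afmid and Cdcp1 lie under it. No library was a copy of another (chi-square per degree of freedom 15.6 to 35.6). The labels do not say that libraries are separate animals, so p-values may reflect technical spread only.

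Members, gene lists and tests were chosen with earlier results of these data known. Named by rule were, per direction, the 10 transcripts with the largest difference in mean FPKM and the 5 with the largest log2 difference, and per list up to 4 genes with the smallest p. Not all genes that this rule names are reported here. Other members named were picked after their values were seen. Alternatives were DESeq2 1.42.0, limma voom (limma 3.58.1), RLE scaling, library totals, no filter, other pseudocounts, the replicate number as a block and each library left out. Other cell types' markers (astrocytes, microglia, interneurons and striatal projection neurons) had medians of -0.05, 0.07, -0.001 and -0.56 log2, the last 0.02 without WT replicate 2.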

Additional observations from a re-analysis of the deposited data

How the results depend on the processing

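The direction of the difference was kept under both other pseudocounts and without each library for each transcript named by rule. For all of these but Ncoa7 this was fixed in advance, since groups that do not overlap keep their direction under such changes. edgeR's 0 calls (1083 genes at an unadjusted p under 0.05) became 34 with DESeq2 and 0 to 2 without a library; no host gene was among the DESeq2 calls, and limma voom made 0. The median difference of the higher transcripts, 1.26, was 2.39 with a pseudocount of 0.01, 0.30 with 1, 1.39 at a mean FPKM of at least 0.1 and 1.12 to 1.38 without a library. It was 1.51 for those of at least 50 count equivalents, a setting chosen after seeing the data. That of the lower transcripts, -1.33, was -2.13 and -0.40 with these pseudocounts and -1.39 to -1.29 without a library. Without a library, medians ranged from -0.0028 to 0.017 for splicing factors, -0.026 to 0.016 for surveillance genes, -0.04 to 0.14 for microglial and -0.72 to 0.021 for striatal markers, -0.09 to 0.009 for astrocyte, -0.09 to -0.01 for excitatory neuron and -0.03 to 0.05 for interneuron markers, -0.027 to -0.005 for decay factors, -0.083 to -0.025 for hosts of lower and 0.03 to 0.06 for hosts of higher transcripts. Pseudocounts set the size of these differences, since most levels are under 0.5 FPKM. With the replicate number as a block edgeR called 0 genes and the medians of the transcripts were 1.26 and -1.33. Same-numbered libraries did not deviate together (correlations -0.042, 0.040 and 0.026), so the numbers do not pair them. Low counts, shared exons and copies limit what single transcripts can show.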
